A study of Mus musculus with 9 samples.

Results

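Mitochondrial ribosomal protein genes were taken as the protein-coding genes whose symbol starts with Mrpl or Mrps followed by a number. The annotation held 78 such genes, and all 78 had rows among the 22075 genes of the count files. Of these, 51 were listed under the large subunit (all Mrpl symbols, Mrps18a and Mrps30). The other 27 Mrps symbols, Mrps36 among them, were listed under the small subunit. RNA bound to GFP-tagged ribosomes had been purified by translating ribosome affinity purification (TRAP) from mice of 2 months carrying the tg:Aldh1L1-L10aGFP transgene (line Aldh1L1 JD130), in which the cytosolic ribosomal protein L10a fused to eGFP is driven by the astrocyte promoter Aldh1l1 from a bacterial artificial chromosome. Both groups carried the transgene. The 3 whole astrocyte TRAP libraries came from 1 whole brain each, after removal of the choroid plexus. The 6 endfeet TRAP libraries came from brain vessels, with the astrocyte endfeet that remain attached to them, pooled from 8 mice for each library. No library of RNA before the purification, and none from mice without the transgene, was analysed here.

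Mitochondria carry their own ribosome, which translates the few respiratory chain mRNAs encoded in mitochondrial DNA. Its rRNAs are encoded in mitochondrial DNA, whereas its proteins are encoded in the nucleus, translated on cytosolic ribosomes, in the cytosol or at the mitochondrial surface, and imported. Many of these proteins have a counterpart in the bacterial ribosome and others are specific to mitochondria. The question asked of the 2 groups was how much mRNA for these proteins was bound to tagged cytosolic ribosomes in the material attached to vessels, compared with the whole astrocyte.

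The starts of these genes are shown first, for members described below. In the RefSeq table of GRCm38.p6, which gives 250 bases before to 50 bases after each start, 69 of the 78 members had a promoter. Letters in capitals mark matches, on either strand, to the core of the motif bound by ETS factors (CCGGAAG), by YY1 (AAGATGGC) or by NRF1 (GCATGCGC), factors known as regulators of nuclear genes for mitochondrial proteins. Mrps12 (chr7:28741772-28742071, minus strand) held 1 ETS and 1 YY1 match, Mrpl43 (chr19:45006393-45006692, minus strand) held 2 ETS matches and Mrpl3 (chr9:105053018-105053317, plus strand) held 1 ETS match. Mrpl9 (chr3:94443086-94443385, plus strand) held a stretch that reads as the NRF1 core on both strands, and Mrps11 (chr7:78782881-78783180, plus strand) held 1 YY1 match. Mrpl41 (chr2:24975049-24975348, minus strand), the member with the lowest fold change, held none of the 3 motifs in this window.

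Mrps12: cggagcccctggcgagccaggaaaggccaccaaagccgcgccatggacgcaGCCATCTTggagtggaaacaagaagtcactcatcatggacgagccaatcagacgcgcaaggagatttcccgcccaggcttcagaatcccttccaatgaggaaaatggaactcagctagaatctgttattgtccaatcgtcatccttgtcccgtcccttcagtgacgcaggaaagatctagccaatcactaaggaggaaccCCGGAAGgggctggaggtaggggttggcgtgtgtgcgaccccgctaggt

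Mrpl43: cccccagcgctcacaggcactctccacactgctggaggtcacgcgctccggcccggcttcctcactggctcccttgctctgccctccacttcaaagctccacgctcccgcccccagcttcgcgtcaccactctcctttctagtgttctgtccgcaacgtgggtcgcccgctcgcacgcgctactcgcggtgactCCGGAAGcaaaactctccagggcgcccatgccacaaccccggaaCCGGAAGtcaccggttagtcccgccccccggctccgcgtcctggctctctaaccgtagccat

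Mrpl3: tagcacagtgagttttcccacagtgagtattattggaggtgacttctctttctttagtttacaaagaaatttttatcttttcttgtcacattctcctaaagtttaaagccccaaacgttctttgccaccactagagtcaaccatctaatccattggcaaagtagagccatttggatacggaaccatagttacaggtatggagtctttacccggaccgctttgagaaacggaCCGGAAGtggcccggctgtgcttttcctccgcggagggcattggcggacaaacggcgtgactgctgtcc

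Mrpl9: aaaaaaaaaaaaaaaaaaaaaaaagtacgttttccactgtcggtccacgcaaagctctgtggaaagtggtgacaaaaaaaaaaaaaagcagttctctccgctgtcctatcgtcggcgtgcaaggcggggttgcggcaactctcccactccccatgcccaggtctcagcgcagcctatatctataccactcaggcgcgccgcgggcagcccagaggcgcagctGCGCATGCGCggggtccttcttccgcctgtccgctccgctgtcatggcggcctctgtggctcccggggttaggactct

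Mrps11: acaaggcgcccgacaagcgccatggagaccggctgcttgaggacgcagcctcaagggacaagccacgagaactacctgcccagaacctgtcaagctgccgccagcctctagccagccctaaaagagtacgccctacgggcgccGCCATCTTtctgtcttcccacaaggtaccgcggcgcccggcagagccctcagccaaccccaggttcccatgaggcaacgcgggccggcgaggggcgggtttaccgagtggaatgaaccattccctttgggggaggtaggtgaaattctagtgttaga

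Mrpl41: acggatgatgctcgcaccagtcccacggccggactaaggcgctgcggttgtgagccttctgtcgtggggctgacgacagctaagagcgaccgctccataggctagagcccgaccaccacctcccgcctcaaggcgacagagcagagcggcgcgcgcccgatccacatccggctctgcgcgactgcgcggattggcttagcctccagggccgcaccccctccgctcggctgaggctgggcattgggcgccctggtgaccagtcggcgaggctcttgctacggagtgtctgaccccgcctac

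The ETS core was present in 26 of the 69 member promoters (37.7%) and in 18.2% of the promoters of genes tested below. The YY1 core was present in 12 (17.4%) against 4.77%, and the NRF1 core in 8 (11.6%) against 5.64%. The short sequence CCAAT, bound by NF-Y, was present in 27 (39.1%) against 42.6%. Over all 27025 genes of the table the 4 shares were 9.93%, 3.19%, 3.05% and 41.1%. Matches were found both among the 32 members with a promoter that fell in endfeet TRAP (14 with ETS, 6 with YY1, 3 with NRF1) and among the 37 others (12, 6 and 5). These matches describe letters in a window of fixed length and are no evidence of binding.

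Mitochondrial ribosomal protein mRNAs were lower in endfeet TRAP than in whole astrocyte TRAP libraries. Of the 77 members with enough counts to be tested, 36 fell (46.8%), none rose and 41 did not pass the threshold, an adjusted p of at most 0.05 in edgeR's quasi-likelihood test over all genes. Over all 14403 genes tested, 13.9% were called lower and 20.7% were called higher. The log2 fold change, endfeet minus whole astrocyte, had a median of -1.65 over the 77 members (range -3.64 to 0.47) and of 0.10 over all genes tested, and 75 of the 77 members had a negative value. At an unadjusted p of at most 0.05, 47 members were lower and 0 were higher, where 19% of all genes tested were lower. The members that fell included Mrps12, whose bacterial counterpart lies at the decoding centre, Mrpl16 and Mrpl3 of the large-subunit core, and Mrpl11 of the stalk that contacts translation factors. Of the 36, Mrpl41, Mrps12, Mrps14, Mrpl16, Mrps6, Mrpl43, Mrpl15, Mrpl50, Mrpl11 and Mrpl3 fell in every alternative fit that tested them, and each of the others lost its call in at least 1. In bulk libraries such as these, less of an mRNA in astrocyte endfeet and a different mix of the cells that gave the RNA cannot be told apart.

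Members also took a smaller share of each library. In the 3 whole astrocyte libraries they held 0.406%, 0.442% and 0.436% of the gene counts (0.428% ± 0.019, SD, n = 3). In the 6 endfeet libraries they held 0.145%, 0.109%, 0.152%, 0.123%, 0.129% and 0.187% (0.141% ± 0.027, SD, n = 6). The 2 ranges did not overlap. In each endfeet library, between 61 and 78 of the 78 members lay below the whole astrocyte mean, and the median log2 ratio of the members to that mean lay between -2.10 and -1.53, against -0.37 to -0.06 for all genes tested. For 49 of the 77 members tested (63.6%), every endfeet library lay below every whole astrocyte library, as for 23.3% of all genes tested. All 36 called members were among these 49. The other 13 were Mrps10, Mrps31, Mrpl40, Mrps18c, Mrps26, Mrpl38, Mrpl53, Mrpl12, Mrpl45, Mrps21, Mrps7, Mrpl10 and Mrpl2.

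**Figure D1:**
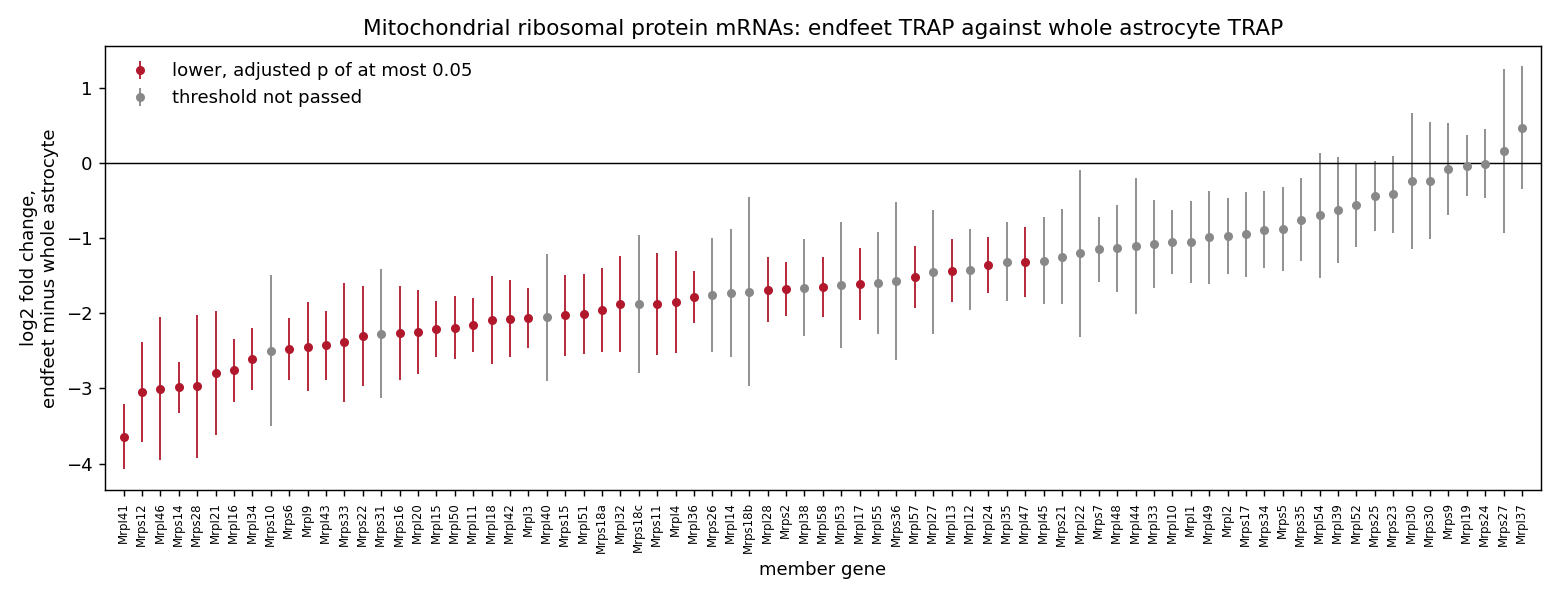
Log2 fold change, endfeet minus whole astrocyte TRAP, with its standard error for the 77 members tested, ordered from the lowest (Mrpl41, -3.64) to the highest (Mrpl37, 0.47). The 36 members past the threshold are in red and all lie at or below -1.31, and the 41 others are in gray.

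The libraries differed in depth and spread. Gene counts summed to 35956972 to 43487888 in whole astrocyte libraries and to 2318745 (endfeet 6) to 13445661 in endfeet libraries, and 3 counts, the least taken as detectable, corresponded to 0.0690 to 0.0834 CPM (counts scaled to a common library total of gene counts) and to 0.223 to 1.29 CPM. The common dispersion, the squared coefficient of variation between replicates beyond counting noise, was 0.014 among whole astrocyte libraries and 0.704 among endfeet libraries. Endfeet 1 and endfeet 6 were the 2 smallest libraries, and of 16 members with 1 endfeet library far from the others, that library was endfeet 1 in 9 cases and endfeet 6 in 6. With both left out, 62 members fell, where 23.6% of all genes were called lower. The count of members that fell was 48 without endfeet 1 and 46 without endfeet 6, where 18.4% and 16.8% of all genes were called lower. It was 19, 26 and 17 without whole astrocyte 1, 2 and 3, where 7.89%, 9.58% and 8.19% of all genes were called lower. Within the libraries of the second series of library numbers, the 3 whole astrocyte and endfeet 4 to 6, 47 members fell, where 19.7% of all genes were called lower. Limma voom was run with quality weights by group, which let the groups differ in variance. It called 68 members and 31.1% of all genes lower. No member rose under any of these.

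Transcript length moved with the fold changes. The transcript that stood for each gene had a median length of 1302 bases over the members and of 3134 bases over all genes tested. Among all genes tested with transcripts of at most 800 bases the median log2 fold change was -1.0 and 25.7% were called lower, whereas above 3000 bases these were 0.48 and 8.81%. Members lay below the genes of similar length of the chosen transcript in each length class. Their medians were -1.62 (15 members up to 800 bases), -1.95 (19 members, 801 to 1200 bases), -1.36 (19 members, 1201 to 2000 bases), -1.65 (9 members, 2001 to 3000 bases) and -1.31 (15 members from 3001 bases). Those of all genes were -1.0, -1.05, -0.61, -0.18 and 0.48. With the length trend of each library taken out of the fit, 13 members fell, all of them among the 36, and their background was 9.3% of all genes. The median over members was then -0.64, against 0.27 over all genes, and 58 of 77 members kept a negative value. With length and GC content taken out together, 15 members fell, all among the 36, against 8.82% of all genes. All lengths are those of the chosen transcripts, and for some members a shorter transcript held nearly as many counts. Why length moved with the groups was not tested.

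**Figure D2:**
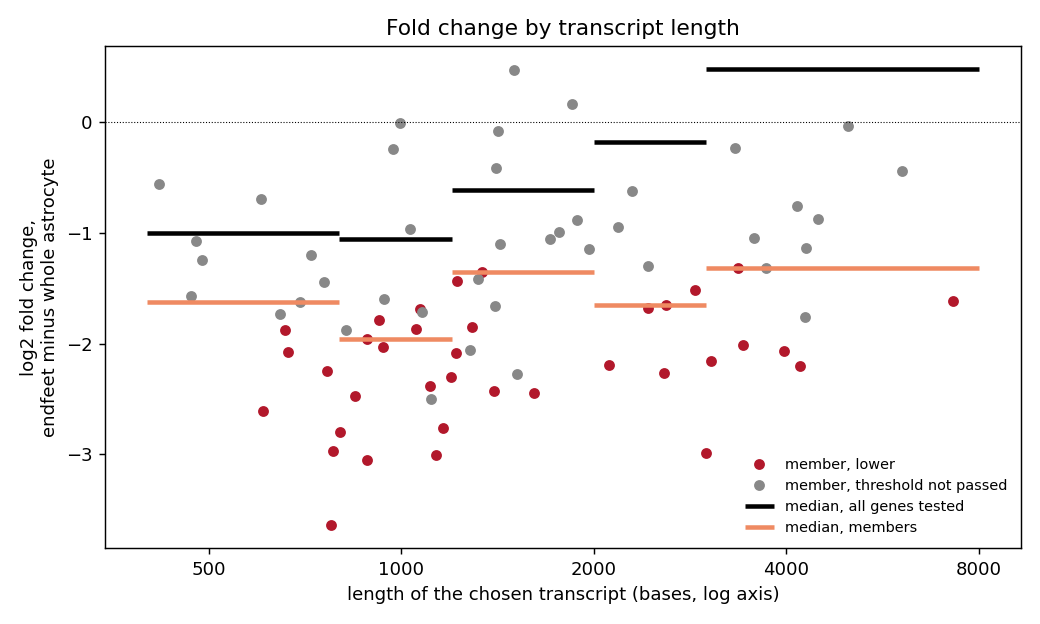
Log2 fold change of the 77 members against the length of the transcript that stands for the gene (log axis), with horizontal lines at the median of the members and of all genes tested in 5 length classes. The line of all genes rises from -1.0 to 0.48, whereas that of the members stays between -1.95 and -1.31.

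By subunit, 26 of the 50 large-subunit members tested fell (median log2 fold change -1.62) and 10 of the 27 small-subunit members fell (median -1.71). Members with a bacterial counterpart fell in 25 of 45 cases (median -1.68) and members specific to mitochondria in 11 of 32 cases (median -1.60). These shares were not compared by a test.

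Among large-subunit proteins with a bacterial counterpart, 17 of the 29 tested fell, with a median of -1.61 over the 29. Besides the members described here, the 17 included Mrpl20, Mrpl18, Mrpl32, Mrpl4, Mrpl28, Mrpl17, Mrpl13, Mrpl24 and Mrpl47. The calls of Mrpl32, Mrpl4 and Mrpl47 were lost without whole astrocyte 1, 2 or 3. That of Mrpl4 was also lost when edgeR used the size factors of DESeq2 (edgeR adjusted p = 0.0550). Mrpl16 (chr19:11770391-11774960, plus strand), whose bacterial counterpart lies close to the tRNA sites, had normalized counts of 1115, 1111 and 930.3 in whole astrocyte libraries and of 77.5 (lowest), 162 (median) and 226 (highest) in endfeet libraries. A normalized count is the deposited count divided by the size factor of its library. All 6 endfeet libraries lay far below the 3 whole astrocyte libraries, and the log2 fold change was -2.76 (SE 0.42, edgeR adjusted p = 0.000243). Mrpl34 (chr8:71464959-71465747, plus strand), a very small protein of the core, had 683, 708 and 764 in whole astrocyte libraries and 76.1, 124 and 148 as lowest, median and highest in endfeet libraries. The groups did not overlap, and the log2 fold change was -2.61 (SE 0.41, edgeR adjusted p = 0.000313). With length taken out of the fit Mrpl34 no longer passed (edgeR adjusted p = 0.0913).

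Mrpl9 (chr3:94443318-94451130, plus strand), whose promoter with the NRF1 core is shown above, had normalized counts of 1587, 1767 and 1962 in whole astrocyte libraries and of 19.6, 361 and 482 as lowest, median and highest in endfeet libraries. The lowest value was that of endfeet 1, and the other 5 lay between 304 and 482. Its log2 fold change was -2.45 (SE 0.59, edgeR adjusted p = 0.00622), and the call was lost with length taken out of the fit (edgeR adjusted p = 0.0789). Mrpl3 (chr9:105053239-105079888, plus strand), a core protein counted on a transcript of 3972 bases, had 1127, 1153 and 1117 in whole astrocyte libraries and 105, 288 and 385 in endfeet libraries. The groups were apart, with a log2 fold change of -2.06 (SE 0.40, edgeR adjusted p = 0.00142). It stood at -1.99 with that length taken out of the fit. A shorter Mrpl3 transcript, of 1394 bases, held 3210 raw counts in whole astrocyte 1, against 3271 on the 3972 bases. Mrpl15 (chr1:4773206-4785739, minus strand), also of the core and counted on 4203 bases, had 1281, 1165 and 1188 in whole astrocyte libraries and 181, 235 and 488 in endfeet libraries. The highest endfeet value, in endfeet 6, was still below all whole astrocyte values. The log2 fold change was -2.20 (SE 0.37, edgeR adjusted p = 0.000584). For Mrpl15 too, a shorter transcript, of 910 bases, held 3155 raw counts in whole astrocyte 1, against 3717 on the 4203 bases.

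Mrpl21 (chr19:3282901-3292837, plus strand), another protein of the bacterial type, was less abundant, with normalized counts of 255, 280.0 and 252 in whole astrocyte libraries and of 0, 33.8 and 80.6 as lowest, median and highest in endfeet libraries. It was at 0 in endfeet 6, the smallest library, and the log2 fold change was -2.80 (SE 0.82, edgeR adjusted p = 0.0186). The call was lost without whole astrocyte 1, 2 or 3 (edgeR adjusted p = 0.0735, 0.0630 and 0.0683) and with length taken out of the fit (edgeR adjusted p = 0.182).

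The stalk of the large subunit is built on Mrpl10, which carries copies of Mrpl12, with Mrpl11 at its base. Mrpl11 (chr19:4962147-4966999, plus strand) had 790.3, 951 and 910.0 normalized counts in whole astrocyte libraries and 145, 207 and 243 as lowest, median and highest in endfeet libraries. These were among the least scattered endfeet values (200.4 ± 34.2, SD, n = 6), and Mrpl11 fell, with a log2 fold change of -2.16 (SE 0.36, edgeR adjusted p = 0.00051). Mrpl10 (chr11:97041560-97049213, plus strand) had 813, 885 and 911 in whole astrocyte libraries and 197, 384 and 771 in endfeet libraries. Its highest endfeet value, in endfeet 1, came close to the whole astrocyte values, and it was not called (log2 fold change -1.05, SE 0.43, edgeR adjusted p = 0.0734). Without endfeet 1 it passed (log2 fold change -1.31, edgeR adjusted p = 0.0133). Mrpl12 (chr11:120484613-120489065, plus strand) had 393, 472 and 448 in whole astrocyte libraries and 62.2, 183 and 272 in endfeet libraries. The groups did not overlap, but it was not called (log2 fold change -1.42, SE 0.54, edgeR adjusted p = 0.0582), although it passed without endfeet 1, 4 or 6 (edgeR adjusted p = 0.0376, 0.0434 and 0.0280).

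Among large-subunit proteins specific to mitochondria, 9 of the 21 tested fell, with a median of -1.62 over the 21. Mrpl41 (chr2:24974117-24975098, minus strand) had the lowest log2 fold change of all members. Its normalized counts were 823, 890.0 and 971 in whole astrocyte libraries (895 ± 74.3, SD, n = 3) and 37.1 (lowest), 69.3 (median) and 103 (highest) in endfeet libraries (71.6 ± 24.6, SD, n = 6). The endfeet mean was 8.01% of the whole astrocyte mean, and the log2 fold change was -3.64 (SE 0.44, edgeR adjusted p = 3.97e-05). With length taken out of the fit it was -2.18 (edgeR adjusted p = 0.00251).

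Mrpl43 (chr19:45004829-45006442, minus strand), with the ETS matches shown above, had 814, 832 and 793 in whole astrocyte libraries and 86.5, 129.8 and 270.4 as lowest, median and highest in endfeet libraries. The whole astrocyte values were within a narrow range well above all endfeet values, and the log2 fold change was -2.43 (SE 0.46, edgeR adjusted p = 0.00125). Mrpl50 (chr4:49512596-49521093, minus strand) had 2381, 2562 and 2156 in whole astrocyte libraries and 148, 552 and 852 in endfeet libraries. It fell, with a log2 fold change of -2.19 (SE 0.42, edgeR adjusted p = 0.00143), although its endfeet values spread widely. Mrpl58 (chr11:115403752-115412674, plus strand), a large-subunit protein related to bacterial release factors, had 606, 619.8 and 665 in whole astrocyte libraries and 148, 195 and 284 in endfeet libraries. Its log2 fold change was -1.65 (SE 0.40, edgeR adjusted p = 0.00642), and the call was lost with length taken out of the fit (edgeR adjusted p = 0.0622). Mrpl42, Mrpl51 and Mrpl57 also fell.

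Mrpl46 (chr7:78775236-78783531, minus strand), of the central protuberance, had 544, 607 and 527 in whole astrocyte libraries and 0, 42.1 and 221 in endfeet libraries. It was at 0 in endfeet 6 and highest in endfeet 3, with a log2 fold change of -3.00 (SE 0.95, edgeR adjusted p = 0.0265). The call was lost without whole astrocyte 1, 2 or 3 (edgeR adjusted p = 0.0791, 0.0686 and 0.0717) and with length taken out of the fit (edgeR adjusted p = 0.0901). In the list of the central protuberance 2 of the 6 members tested fell (median -1.86), and in that of the exit of the nascent peptide 3 of 7 (median -1.30). Mrpl45 (chr11:97315716-97329920, plus strand), which anchors the ribosome to the inner membrane near that exit, had 373, 416 and 435 in whole astrocyte libraries and 61.4, 161 and 311 in endfeet libraries. The groups did not overlap, but the threshold was not passed (log2 fold change -1.30, SE 0.58, edgeR adjusted p = 0.0982). It was passed without endfeet 4 (edgeR adjusted p = 0.0335).

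In the small subunit, 8 of the 16 proteins with a bacterial counterpart fell, with a median of -1.87. Mrps14 (chr1:160195215-160202170, plus strand), of the head of the small subunit, had 2516, 2714 and 2422 normalized counts in whole astrocyte libraries (2551 ± 149, SD, n = 3) and 201, 319 and 524 as lowest, median and highest in endfeet libraries (325 ± 121, SD, n = 6). No endfeet library came near the whole astrocyte values, and the log2 fold change was -2.98 (SE 0.34, edgeR adjusted p = 2.47e-05). It was -2.68 with the chosen length of 2999 bases taken out of the fit. In whole astrocyte 1 that transcript held 7299 raw counts, and one of 787 bases held 4236. Mrps6 (chr16:92058270-92112227, plus strand), of the platform, had 1470.0, 1592 and 1624 in whole astrocyte libraries and 120.3, 259.7 and 545 in endfeet libraries. The log2 fold change was -2.47 (SE 0.42, edgeR adjusted p = 0.000538), and the groups were well apart.

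Mrps12 (chr7:28739641-28741820, minus strand), whose promoter is shown above, had 777, 977 and 665 in whole astrocyte libraries and 12.4, 82.7 and 252 in endfeet libraries. The lowest value was in endfeet 6 and the highest in endfeet 5, and the log2 fold change was -3.05 (SE 0.66, edgeR adjusted p = 0.00319). Mrps28 (chr3:8802146-8923918, minus strand), the counterpart of bacterial protein S1, had 524, 519 and 583 in whole astrocyte libraries and 0, 73.0 and 133 in endfeet libraries. Endfeet 1 held no count and endfeet 6 very few, and the log2 fold change was -2.97 (SE 0.95, edgeR adjusted p = 0.0277). The call was lost without whole astrocyte 1, 2 or 3 (edgeR adjusted p = 0.0825, 0.0618 and 0.0862) and with length taken out of the fit (edgeR adjusted p = 0.180). Mrps16 (log2 fold change -2.26), Mrps15, Mrps11 (-1.87) and Mrps2 also fell. The call of Mrps16 was lost without whole astrocyte 1, 2 or 3 (edgeR adjusted p = 0.0667, 0.0517 and 0.0802). That of Mrps11 (edgeR adjusted p = 0.0475) was also lost without each of them (edgeR adjusted p = 0.124, 0.119 and 0.170). Mrps11 was not called either without endfeet 2, 3 or 5 (edgeR adjusted p = 0.0509, 0.0696 and 0.0589). With length taken out of the fit it stood at -0.55 (edgeR adjusted p = 0.617).

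Among the 11 members listed as small-subunit proteins specific to mitochondria only Mrps33 and Mrps22 fell, with a median of -1.57 over the 11. Mrps22 (chr9:98588730-98601660, minus strand) had 600.4, 610.3 and 501 in whole astrocyte libraries and 17.2, 113 and 206 in endfeet libraries. Its log2 fold change was -2.30 (SE 0.67, edgeR adjusted p = 0.0175), and the call was lost without whole astrocyte 1, 2 or 3 (edgeR adjusted p = 0.0746, 0.0531 and 0.0518), with the series of library numbers as a covariate (edgeR adjusted p = 0.0880) and with length taken out of the fit (log2 fold change -1.13, edgeR adjusted p = 0.242). Mrps33 (chr6:39801804-39810988, minus strand) had 325, 371 and 259 in whole astrocyte libraries and 19.9, 29.5 and 214 in endfeet libraries. The highest value was in endfeet 1, and the other 5 were at most 61.8. The log2 fold change of Mrps33 was -2.39 (SE 0.79, edgeR adjusted p = 0.0328), and the call was lost without whole astrocyte 1, 2 or 3 (edgeR adjusted p = 0.110, 0.102 and 0.0799) and without endfeet 2 or 3 (edgeR adjusted p = 0.0688 and 0.0508). With length taken out of the fit it was -0.93 (edgeR adjusted p = 0.483).

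**Figure D3:**
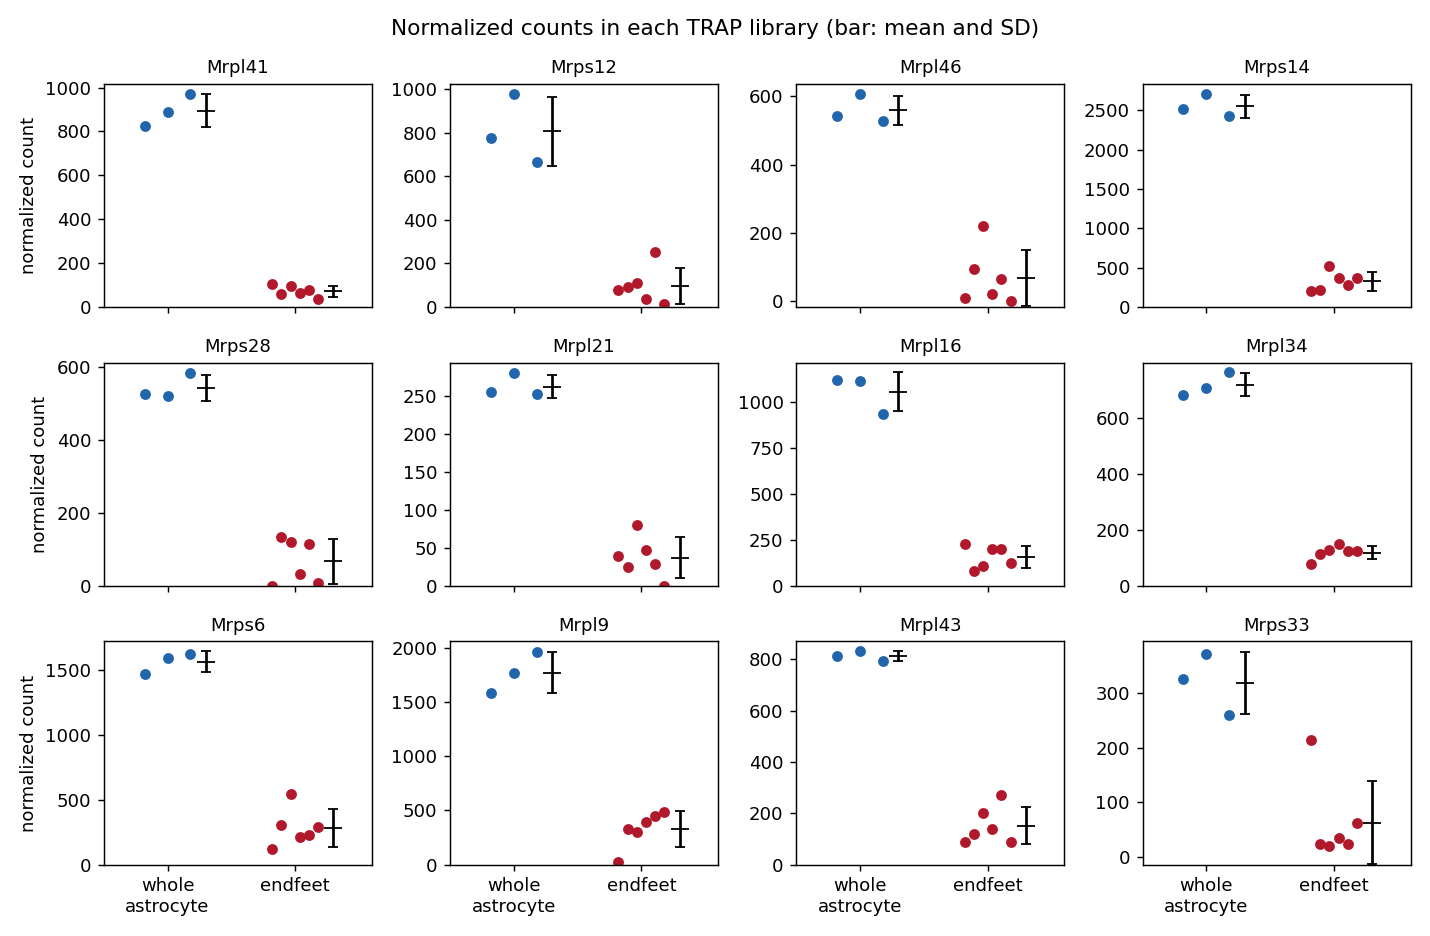
Normalized counts in the 3 whole astrocyte (blue) and 6 endfeet (red) TRAP libraries of the 12 members with the lowest log2 fold changes among those past the threshold, with mean and SD beside each group. In each of the 12 panels all red points lie below all blue points, and the endfeet values of Mrpl46, Mrps28 and Mrpl21 reach 0.

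Some members stood apart from the others. Mrpl37, a large-subunit protein, had the highest log2 fold change, 0.47 (SE 0.82, edgeR adjusted p = 0.686), with 450.5, 545 and 516 normalized counts in whole astrocyte libraries and 123, 298 and 2744 as lowest, median and highest in endfeet libraries. The value of 2744 belonged to endfeet 1, and 4 of the other 5 lay below all whole astrocyte values. Mrps27 was alike, with 242, 247 and 234 in whole astrocyte libraries, 1261 in endfeet 1 and 13.1 to 192 in the other endfeet libraries. Mrps24 had 348, 354 and 348 in whole astrocyte libraries and 194, 316 and 581 in endfeet libraries, values that spread to both sides of the whole astrocyte values (log2 fold change -0.01, SE 0.46, edgeR adjusted p = 0.992). These 3 were the only members whose mean was not lower in endfeet. Mrps30, which despite its name lies in the large subunit, had 286, 339 and 355 in whole astrocyte libraries and 66.3, 113 and 834 in endfeet libraries. Endfeet 1 and endfeet 6 were above all whole astrocyte libraries and the other 4 below them, and the log2 fold change was -0.23 (SE 0.78, edgeR adjusted p = 0.842). It turned to 0.021 without endfeet 2 and to 0.22 with length taken out of the fit. In the other direction, Mrps30 was called lower without endfeet 1 and 6 together (-1.75, edgeR adjusted p = 0.00258) and with limma voom (-1.26, adjusted p = 0.0358). Mrps27 was called lower in the same fits (-2.15, edgeR adjusted p = 0.0116, and -1.67, limma voom adjusted p = 0.0317).

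The paralogues Mrps18a, Mrps18b and Mrps18c differed in level. Mrps18a, found in the large subunit, had 655, 787 and 781 normalized counts in whole astrocyte libraries and 46.6, 153 and 429.6 in endfeet libraries, and fell (log2 fold change -1.95, SE 0.56, edgeR adjusted p = 0.0168). This call was lost without whole astrocyte 1 or 3 (edgeR adjusted p = 0.0552 and 0.0676), and with the series of library numbers (endfeet 1 to 3 against all others) as a covariate (edgeR adjusted p = 0.0923). With length taken out of the fit the value was -0.64 (edgeR adjusted p = 0.424). Mrps18c had 104, 106 and 84.9 against 0, 24 and 48 in endfeet libraries, groups that did not overlap (log2 fold change -1.87, SE 0.92, edgeR adjusted p = 0.133). Mrps18b was near the limit of detection, with 18.3, 28.4 and 30.8 against 0, 2.49 and 23.4, and 3 endfeet libraries at 0 (log2 fold change -1.71, SE 1.26, edgeR adjusted p = 0.313). With limma voom Mrps18b was called lower (log2 fold change -2.66, adjusted p = 0.0202). Their log2 fold changes lay within 1 standard error of each other.

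Levels of different members were compared as CPM per kb, the CPM divided by the length of the chosen transcript. The order below holds for the chosen transcripts only. In whole astrocyte 1, Mrps6 had 4265 raw counts on 846 bases. Mrpl17 was counted on a coding transcript of 7300 bases, but another coding transcript, of 1028 bases, held 5353. Mrps14 was counted on a coding transcript of 2999 bases, but another coding transcript, of 787 bases, held 4236. On these shorter transcripts both would rank among the highest. In whole astrocyte libraries the mean levels had a median of 27.4 CPM per kb over the 78 members (0.125 to 151), and in endfeet libraries of 8.54 (0.0816 to 40.9). The upper quartile was 3.07 times the lower quartile in whole astrocyte and 2.75 times in endfeet libraries. The 5 highest in whole astrocyte libraries were Mrps6 (151 ± 9.83 CPM per kb, SD, n = 3), Mrpl36 (114 ± 1.67), Mrpl34 (97.0 ± 6.74), Mrpl41 (94.5 ± 9.06) and Mrpl50 (91.7 ± 7.59). Mrps6 lay above Mrpl36 by more than these SDs, Mrpl36 above Mrpl34 likewise, and the last 3 were within 1 SD of their neighbours. Of these 5 members all fell, Mrpl36 by 1.79 on the log2 scale (SE 0.35, edgeR adjusted p = 0.0015). With length taken out of the fit Mrpl36 was not called (log2 fold change -0.33, edgeR adjusted p = 0.635).

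On the same transcripts, the order differed in endfeet libraries. Mrpl52, rank 16 in whole astrocyte libraries, had the highest mean, 40.9 ± 22.3 CPM per kb (SD, n = 6), followed by Mrpl33 (40.4 ± 29.4), Mrpl49 (33.1 ± 32.2) and Mrpl37 (32.7 ± 41.1). The SDs exceeded the differences between these 4, so their order is not resolved. Mrpl41 went from rank 4 to rank 50, with 7.08 ± 2.59 CPM per kb in endfeet libraries. The 5 lowest in whole astrocyte libraries were Mrpl23 (0.125 CPM per kb), Mrps18b (1.96), Mrps26 (3.87), Mrps36 (4.44) and Mrpl22 (4.85). In whole astrocyte 1, Mrps26 had 572 raw counts on its chosen 4278 bases, where a transcript of 1057 bases held 426. Mrps26, Mrps36 and Mrpl22 were not called (log2 fold changes -1.76, -1.57 and -1.20). Mrps26 passed without endfeet 1 (edgeR adjusted p = 0.0486). Mrps36, whose protein is part of the oxoglutarate dehydrogenase complex, and Mrpl22 turned to 0.19 and 0.46 with length taken out of the fit. In the other direction, limma voom called Mrps36 (log2 fold change -2.07, adjusted p = 0.0312) and Mrpl22 (-2.02, adjusted p = 0.0436) lower, and Mrpl22 was also called lower within the second series of library numbers (-3.49, edgeR adjusted p = 0.0245). Mrpl23 was the member not tested, with 2, 4 and 4 raw counts in whole astrocyte libraries and 1 and 3 in endfeet 2 and 5 and none in the other 4. Reads aligning more than once had been removed, and the annotation holds a pseudogene named Mrpl23-ps1. Whether reads of Mrpl23 were lost in this way was not tested.

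**Figure D4:**
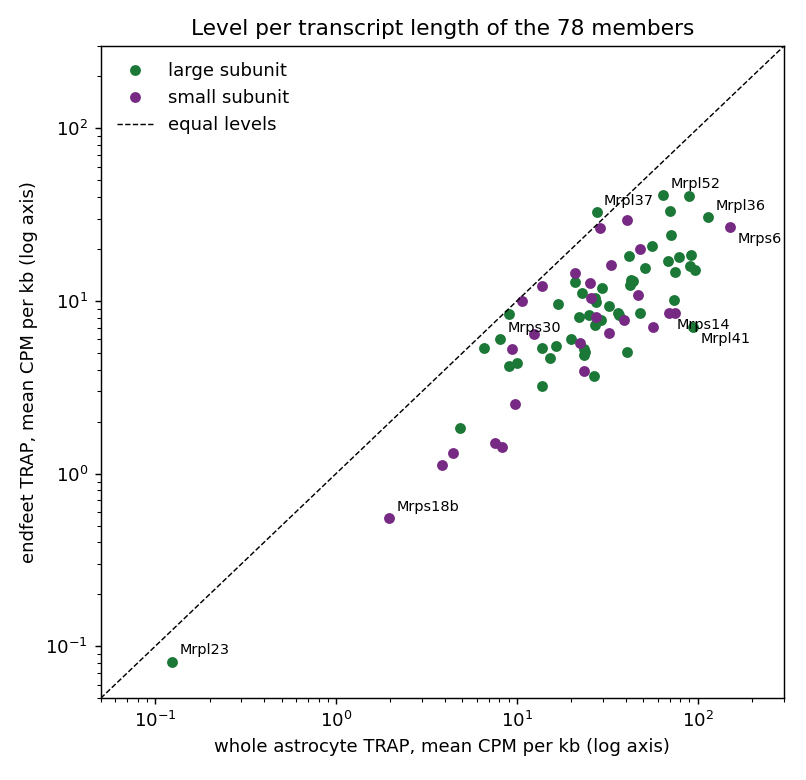
Mean CPM per kb in endfeet TRAP (vertical, log axis) against whole astrocyte TRAP (horizontal, log axis) for the 78 members, with the dashed line at equal levels. Most points lie below the line, Mrpl37 lies above it, and Mrpl23 and Mrps18b lie lowest.

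Counts can be shared between genes that overlap. Exons of 33 members shared bases with another annotated gene, and the library kit as given in the labels and methods is not stated to keep the strand. Some overlaps lie on the same strand, as for Mrps6 with Gm49711 and Slc5a3, where strand would not tell the reads apart. Among these 33 members 14 fell (median -1.44), and among the 44 tested members that share no bases 22 fell (median -1.68). Mrpl17 was counted on a transcript of 7300 bases, and in endfeet 1 that transcript held 1022 raw counts against 69 on a shorter transcript of the gene, whereas in whole astrocyte 1 it held 7902 against 5353. When the protein-coding transcript with the highest CPM per kb stood for each gene, 34 members fell, where 1805 of 14277 genes tested were called lower. When counts were summed over transcripts, 38 members fell, where 1976 of 14682 genes tested were called lower.

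Many members start close to another gene that runs the other way. For 33 members the start of an opposite-strand gene lay within 1000 bases, and 31 of these neighbours were not members themselves. Of the 30 such neighbours tested, 5 fell (Psma2, Ndufs6, Ndufb5, Rab6a and Zfp661), 1 rose (Tmem63b) and 24 did not pass. Their median log2 fold change was -0.13. Over all genes tested, 13.9% were called lower and 20.7% higher. Mrps12 and its neighbour Sars2, 172 bases apart, had log2 fold changes of -3.05 and -0.08. Mrpl46 and Mrps11, both members, overlap at their starts and both fell (-3.00 and -1.87). Neither call held without whole astrocyte 1, 2 or 3.

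Mitochondrial ribosomal proteins also exist under other symbols. Of 5 tested, 4 fell: Dap3, a GTP-binding protein of the small subunit (log2 fold change -1.23, SE 0.43, edgeR adjusted p = 0.0399), Chchd1 (-1.62, SE 0.49, edgeR adjusted p = 0.0218), Aurkaip1 (-1.77, SE 0.33, edgeR adjusted p = 0.00121) and Gadd45gip1 (-1.63, SE 0.49, edgeR adjusted p = 0.0207). Ptcd3 did not pass (-0.89, SE 0.53, edgeR adjusted p = 0.215). Aurkaip1, for example, had 1246, 1251 and 1384 normalized counts in whole astrocyte libraries and 237, 367 and 510.5 as lowest, median and highest in endfeet libraries. With length taken out of the fit its call was lost (edgeR adjusted p = 0.409), as was that of Chchd1 (log2 fold change -0.07, edgeR adjusted p = 0.932). Without whole astrocyte 1, 2 or 3, Dap3 (edgeR adjusted p = 0.140, 0.0912 and 0.128) and Chchd1 (edgeR adjusted p = 0.110, 0.0710 and 0.0999) were not called. Dap3 also lost its call without endfeet 2 (edgeR adjusted p = 0.0870), and Gadd45gip1 without whole astrocyte 1 or 3 (edgeR adjusted p = 0.0796 and 0.0717).

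Other genes of mitochondrial translation were mostly not past the threshold. The shares called lower were 16.7% of translation factors, 13.6% of assembly factors, 11.8% of tRNA synthetases and 15.4% of transcription factors. These are near the 13.9% of all genes tested. Of 12 translation factors 2 fell (median -0.83), Taco1, an activator of translation of a cytochrome oxidase subunit (-3.32), and Tsfm, an elongation factor (-2.60). Neither held without whole astrocyte 1, 2 or 3 (edgeR adjusted p = 0.0782, 0.0506 and 0.0624 for Taco1, and 0.132, 0.127 and 0.132 for Tsfm) or with length taken out of the fit (edgeR adjusted p = 0.0849 and 0.305), and Tsfm was not called without endfeet 2, 3, 4 or 5 either (edgeR adjusted p = 0.0574, 0.0726, 0.0564 and 0.0642). Of 22 assembly factors 3 fell and 1 rose (median -1.05). The 3 were Mrm2, which methylates the large rRNA (-2.93), Eral1, which binds the small rRNA (-2.23), and Malsu1 (-1.31). None of the 3 held without whole astrocyte 1, 2 or 3 (edgeR adjusted p = 0.0833, 0.0753 and 0.0844 for Mrm2, 0.107, 0.0867 and 0.102 for Eral1, and 0.105, 0.0683 and 0.0936 for Malsu1) or with length taken out of the fit (edgeR adjusted p = 0.0953, 0.123 and 0.237). Eral1 was also not called without endfeet 3 (edgeR adjusted p = 0.0654), nor Malsu1 without endfeet 2 (edgeR adjusted p = 0.0562). Mterf4, which acts in assembly of the large subunit, rose from 161 ± 2.76 (SD, n = 3) to 2187 ± 478 (SD, n = 6) normalized counts, with a log2 fold change of 3.75 (SE 0.35, edgeR adjusted p = 4.26e-06). Its exons share bases with Sned1 on the other strand, and reads of the 2 genes cannot be told apart there without strand. Of 17 tRNA synthetases 2 fell, Fars2 (-2.28) and Mars2 (-2.27), with a median of -0.39. Neither held without whole astrocyte 1, 2 or 3 (edgeR adjusted p = 0.103, 0.0904 and 0.116 for Fars2, and 0.104, 0.0548 and 0.0694 for Mars2), nor Fars2 without endfeet 2 (edgeR adjusted p = 0.0910) or with length taken out of the fit (edgeR adjusted p = 0.150). Of 13 factors of mitochondrial DNA transcription and RNA handling 2 fell (median 0.12), Tfam, which packages and transcribes mitochondrial DNA (-2.08), and Slirp, which binds mitochondrial mRNAs (-1.28). Slirp was not called without whole astrocyte 1 (edgeR adjusted p = 0.0628) or with length taken out of the fit (edgeR adjusted p = 0.118).

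The gene families most like the members went different ways. Of the 90 nuclear-encoded respiratory chain subunits tested, 62 fell and 1 rose (median -1.88), and their share of gene counts went from 1.89% ± 0.082 (SD, n = 3) to 0.536% ± 0.078 (SD, n = 6). Of the 97 cytosolic ribosomal protein genes 74 were tested, of which 3 fell and 10 rose (median 0.57). The 97 together held 0.185% ± 0.010 (SD, n = 3) of gene counts in whole astrocyte and 0.323% ± 0.113 (SD, n = 6) in endfeet libraries. Reads aligning more than once had been removed, and the loss of such reads from this family was not tested. These 2 families had short transcripts too, with median lengths of 891.5 and 926.5 bases. Of the mRNAs encoded in mitochondrial DNA, 13 had rows and 7 were tested, and all 7 rose. Their log2 fold changes lay between 6.69 (mt-Cytb) and 7.63 (mt-Co1), and their share went from 0.00409% ± 0.00129 (SD, n = 3) to 0.530% ± 0.155 (SD, n = 6). mt-Nd1, as an example, had 137, 96.9 and 116 normalized counts in whole astrocyte libraries and 9503, 14302 and 23604 as lowest, median and highest in endfeet libraries. mt-Nd4l, mt-Co2, mt-Co3, mt-Atp6 and mt-Atp8 were at 0 in all 9 libraries. These mRNAs are translated within mitochondria, by ribosomes that do not hold the tagged protein.

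**Figure D5:**
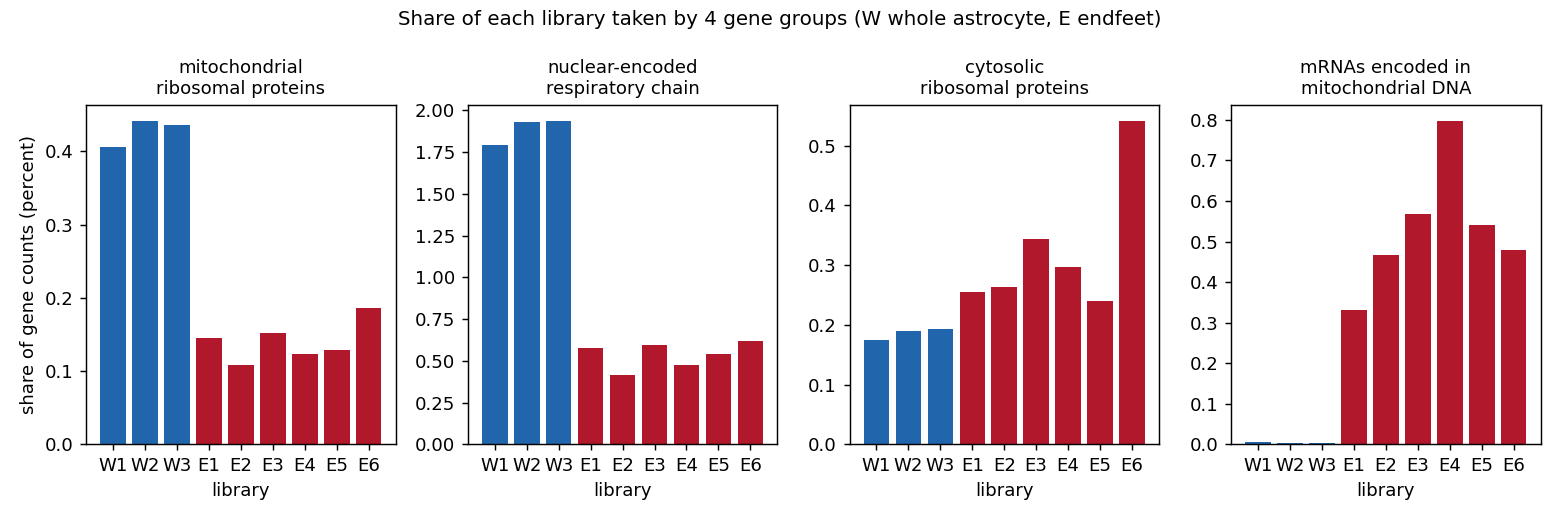
Share of the gene counts of each library, in percent, taken by 4 gene groups in whole astrocyte (W1 to W3, blue) and endfeet (E1 to E6, red) TRAP libraries, each panel on its own linear axis from 0. Members and nuclear-encoded respiratory chain subunits take less of every endfeet library, and mRNAs encoded in mitochondrial DNA take more of every endfeet library, than of any whole astrocyte library.

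Markers of other cells differed between the groups as well. The 10 endothelial markers all rose, with summed levels of 6.83 to 9.14 CPM in whole astrocyte and 2651 to 5968 CPM in endfeet libraries. The 10 mural markers all rose (38.2 to 39.9 against 2925 to 7956 CPM), as did 7 of 7 fibroblast markers (29.8 to 44.4 against 736 to 1442 CPM) and 7 of 10 markers of microglia and macrophages (22.4 to 27.1 against 193 to 380.3 CPM). Of 9 neuronal markers 3 fell (3676 to 4186 against 1002 to 1875 CPM), and of 7 oligodendrocyte markers 1 fell (653 to 680.1 against 241 to 527 CPM). Of 9 astrocyte markers Aqp4 rose and Aldh1l1, Sox9 and Aldoc fell, and their sum overlapped between the groups (23278 to 25104 against 10953 to 29811 CPM). No marker was under 3 counts in every library of a group. The part of these cells in the lower levels of the members was not tested.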

How the data were processed

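Mice and libraries were as described above. The authors filtered 50 bp reads, aligned them to mm10 (Bowtie), dropped multi-mapping reads, and obtained counts on Ensembl 75 transcripts by HTSeq (version 0.5.3 in the submitters' processing notes). The deposited values are raw counts per transcript. Of 75466 transcripts, 73164 were matched to GENCODE annotation of GRCm38 and 2302 were not, and 17 genes that share a symbol were left out. For each gene the transcript with the highest CPM summed over libraries was used.

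The 9 libraries were compared with edgeR 4.0.16 (TMM, filterByExpr, quasi-likelihood test) in R 4.3.3, with Benjamini-Hochberg adjustment over all genes and a threshold of 0.05, after the script was tested on simulated data. All simulated libraries shared the same dispersion, unlike the groups here, so that test cannot show how the fit behaves with unequal spread. Normalized counts used the size factors of DESeq2 1.42.0. DESeq2, limma 3.58.1 (voom with quality weights by group), other filters, the replicate number as a block, the series of library numbers (endfeet 1 to 3 against all others, meaning not stated) and leaving out each library were alternatives. Offsets for length or for length and GC content, the transcript with the highest CPM per kb, and leaving out endfeet 1 and 6 together were added after seeing the data. Members and lists were chosen with earlier results of these data known. Described genes are the 12 with the largest change among members that fell, the 5 highest and 5 lowest by CPM per kb, paralogues and members of known role, and called genes of related lists. Mrpl3, Mrpl15, Mrps22, Mrpl37, Mrps27, Mrps24, Mrpl52, Mrpl33 and Mrpl49 were described after their values were seen. Same-numbered libraries of the groups did not deviate together (correlations -0.04, 0.02 and 0.04).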

Additional observations from a re-analysis of the deposited data

Results flagged for a closer look

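In 16 of the 78 members (20.5%), 1 endfeet library lay so far from the other 5 that its gap exceeded Dixon's 95% critical value. For normally distributed values, chance exceeds it in about 1 of 20 groups. The rule was run on normalized counts without logarithms. Whether other genes exceed it as often as the members was not tested. In 9 of them that library was endfeet 1, with 822 normalized counts of Mrpl13, 2508 of Mrpl17, 233 of Mrpl27, 2744 of Mrpl37, 869 of Mrpl44, 864 of Mrpl47, 493.3 of Mrpl55, 1261 of Mrps27 and 214 of Mrps33. In 6 it was endfeet 6, with 352 of Mrpl14, 488 of Mrpl15, 334 of Mrpl18, 1372 of Mrpl35, 1459 of Mrpl39 and 2899 of Mrps25. In endfeet 3, Mrps21 had 106 and Chchd1, of the proteins with other symbols, had 204. All of these values were the highest of their group. Endfeet 6 and endfeet 1 had the smallest gene totals, 2318745 and 6508092 counts, and the part of depth in these values was not tested.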

How the results depend on the processing

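No member rose under any of the alternatives run. Of the 36 members that fell, 10 fell under each of the 23 alternative fits that tested them: Mrpl41, Mrps12, Mrps14, Mrpl16, Mrps6, Mrpl43, Mrpl15, Mrpl50, Mrpl11 and Mrpl3. The count of members that fell went to 68 with limma voom, 62 without endfeet 1 and 6 together, 13 with an offset for length and 15 with an offset for length and GC content, and lay between 17 and 48 when 1 library was left out. Over all genes, the count called lower went to 4481, 3366 and 1271 with voom, without endfeet 1 and 6, and with length and GC content, and lay between 1171 and 2640 with 1 library left out, when the count called higher lay between 1757 and 3375. The median log2 fold change of the members was -1.91 in the libraries of the second number series alone, -2.01 with voom, -1.44 with libraries thinned to the smallest total, -0.64 with the length offset and -0.54 with length and GC content. The share of members in whole astrocyte libraries was 0.386% with counts summed over transcripts and 0.470% without the 10 most counted genes and mtDNA-encoded genes. Beside the offsets' own removal of the length trend and the smaller number of libraries, the cause of these shifts was not tested.

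The replicate number as a block sets endfeet 1 to 3 against whole astrocyte 1 to 3. With it 33 members fell, where 13.8% of all genes were called lower, and the median over members was -1.88. The libraries share only a number, and the correlations of their deviations were near 0. Among single genes, signs turned for Mrps36 (0.19 with length, 0.22 with length and GC content), Mrpl22 (0.46 and 0.52), Mrps30 (0.22 and 0.16, and between -1.01 and 0.021 with 1 library left out) and Chchd1 (0.0052 with length and GC content). Over the alternatives of the named genes, 922 values kept their direction and side of the threshold, 33 gained the call, 121 lost it and 8 changed sign. Under the block Mrpl46, Mrps28, Mrps33, Mrps16 and Mrps11 were among the members not called. The calls of many members depended on the tool. Among members with few counts, Mrps18b, Mrps36 and Mrpl22 were called lower with voom and not with edgeR over all libraries. The same held for members with many counts, such as Mrpl49 (voom log2 fold change -1.71, adjusted p = 0.000648) and Mrps25 (-0.88, voom adjusted p = 0.00861).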
